A study of Mus musculus with 6 samples.

Results

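The genes examined here encode the machinery that copies DNA and supplies its building blocks. The list holds 41 gene symbols, and all 41 were found among the 18194 genes measured. Each gene was read from 1 probe set (a group of short probes designed for 1 transcript), the one with the highest mean over the 6 arrays. The list was sorted by textbook role into the MCM2-7 helicase (6 genes), GINS with Cdc45 (5), origin licensing (5), the sliding clamp with its loader (6), polymerases and primase (9), RPA with Okazaki fragment processing (5), and nucleotide synthesis with uracil removal (5).

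Gene expression was measured on Affymetrix arrays in MLL-AF9 LGMP, leukaemic progenitors sorted from mouse bone marrow as YFP+ cells without lineage markers that were cKit+, CD34+ and FcgRII/III+ but Sca1-. MLL-AF9 is a fusion oncogene of acute myeloid leukaemia. All 6 samples carried the fusion with its YFP marker and the tamoxifen-dependent Cre allele ROSAwt/CreERT2. At the EF1α locus the WT group (3 arrays) was EF1αwt/wt and the N1-IC group (3 arrays) was EF1αwt/lsl-N1-IC, which holds the Notch1 intracellular domain behind a stop cassette that Cre removes. Both groups were given 2 tamoxifen injections (0.2 mg per g) and were analysed 6 days after the last. Donor cells (50000, with 250000 support cells) had been placed in irradiated wild-type recipients aged 12 weeks, 4 weeks before tamoxifen. WT samples are labelled male and N1-IC samples female, so genotype and sex cannot be told apart. How many animals contributed to a sample is not given in the labels, and the p-values therefore measure only the spread between these arrays, which may be technical. The Notch target genes Hes1 and Nrarp were higher on every N1-IC array (differences of 1.20 ± 0.38 and 2.83 ± 0.80 log2 units), although neither passed the threshold (limma adjusted p = 0.618 each). The target gene Dtx1 had a difference of -0.091 ± 0.11 with overlapping groups, at 3.99 to 4.32 log2 units. These genes were chosen after results were seen. Notch1 itself was level (-0.0041 ± 0.18), and whether its probe set lies within the engineered part was not examined.

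DNA replication begins when the origin recognition complex, CDC6 and CDT1 load the ring-shaped MCM2-7 helicase on chromatin in the G1 phase. In S phase CDC45 and the GINS complex join the ring and it unwinds the duplex, while DNA polymerases held by the PCNA clamp copy both strands. Transcription of most of these genes is driven by E2F factors and peaks around the start of S phase, which makes them common readouts of proliferation in leukaemic progenitors.

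Their promoters were searched for motifs, a feature outside the rule that made the list. RefSeq promoter windows (assembly GRCm38.p6, 250 bases before to 50 after a start) were at hand for 34 of the 41 genes, in 39 windows, because some genes have several starts. An E2F motif was searched on both strands in the spellings TTTCCCGC, TTTGGCGC, TTTCGCGC and TTTGCCGC. Of the 39 windows 14 (35.9%) held it, against 2.26% of all 32851 windows of the same length. The genes were Mcm3, Mcm5, Mcm6, Mcm7, Gins3, Orc1, Cdc6, Cdt1, Rfc3, Pola1, Pole2, Pold1, Pold3 and Lig1. A CCAAT box (CCAAT) stood in 56.4% of the windows, against 37.4% of all windows. The core of the site bound by RBPJ (GTGGGAA), the DNA-binding partner of the Notch1 intracellular domain, stood in 5 windows (12.8%, against 6.38% of all), those of Mcm3, Fen1, Pold2, Pole2 and Rfc3. A match describes these letters and shows no binding.

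Shown here are the 250 bases before the start of Orc1, the gene with the largest difference between the genotypes, and of Mcm5 and Mcm6, subunits of 1 ring with differences of opposite sign. Capitals mark E2F motifs, which in Mcm5 and at the first place in Mcm6 are a pair of overlapping matches on opposite strands.
Orc1, chr4:108579204-108579453, + strand: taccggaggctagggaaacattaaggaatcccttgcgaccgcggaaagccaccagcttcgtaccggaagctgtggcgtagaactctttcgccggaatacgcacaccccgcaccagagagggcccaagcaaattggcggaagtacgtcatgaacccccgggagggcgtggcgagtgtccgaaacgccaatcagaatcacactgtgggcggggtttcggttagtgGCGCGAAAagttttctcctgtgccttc
Mcm5, chr8:75109259-75109508, + strand: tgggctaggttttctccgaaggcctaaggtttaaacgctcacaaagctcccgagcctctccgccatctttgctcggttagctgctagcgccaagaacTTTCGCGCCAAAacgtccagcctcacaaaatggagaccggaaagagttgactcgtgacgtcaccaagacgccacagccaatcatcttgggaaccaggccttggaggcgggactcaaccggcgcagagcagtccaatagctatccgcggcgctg
Mcm6, chr1:128359706-128359955, - strand: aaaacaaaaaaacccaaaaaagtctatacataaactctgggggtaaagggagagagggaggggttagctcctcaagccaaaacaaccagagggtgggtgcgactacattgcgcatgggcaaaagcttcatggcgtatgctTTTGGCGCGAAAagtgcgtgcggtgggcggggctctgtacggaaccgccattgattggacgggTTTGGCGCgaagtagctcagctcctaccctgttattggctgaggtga

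None of the replication genes differed between the genotypes past the threshold, an adjusted p (Benjamini-Hochberg over all genes, limma) under 0.05. The count was 0 of 41, beside 1 of all 18194 genes (0.0055%), the Y-linked Eif2s3y, named after its value was seen. The smallest adjusted p among the 41 was 0.618. At an unadjusted p under 0.05 there was 1 gene, Orc1, lower in N1-IC, where 3.84% of all genes were lower by that rule. By their means 27 of the 41 were lower and 14 higher in N1-IC, and 47.4% of all genes were lower. The median difference, N1-IC minus WT, was -0.039 on the log2 scale, against 0.012 over all genes. Differences ran from -0.67 for Orc1 to 0.30 for Mcm5.

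The intervals of these differences varied in width. Standard errors lay between 0.079 and 0.24 log2 units. For 26 of the 41 genes the 95% interval of the difference lay wholly within 0.5 log2 units of 0, as it did for 9700 of all 18194 genes, and for the other 15 it reached beyond. For 40 it lay within 1, as for 15905 of all genes, the exception being Orc1. Intervals of this width do not show that the genotypes were alike. All 41 probe sets lay above the median of all probe sets (5.63 to 5.67 log2 units) on every array, with values from 6.58 to 13.52. The median over the 18194 genes was higher, at 6.88 to 7.03. Orc1 lay below that gene median on WT 1, N1-IC 2 and N1-IC 3, and Tyms did on N1-IC 3. Detection calls were not used here.

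**Figure D1:**
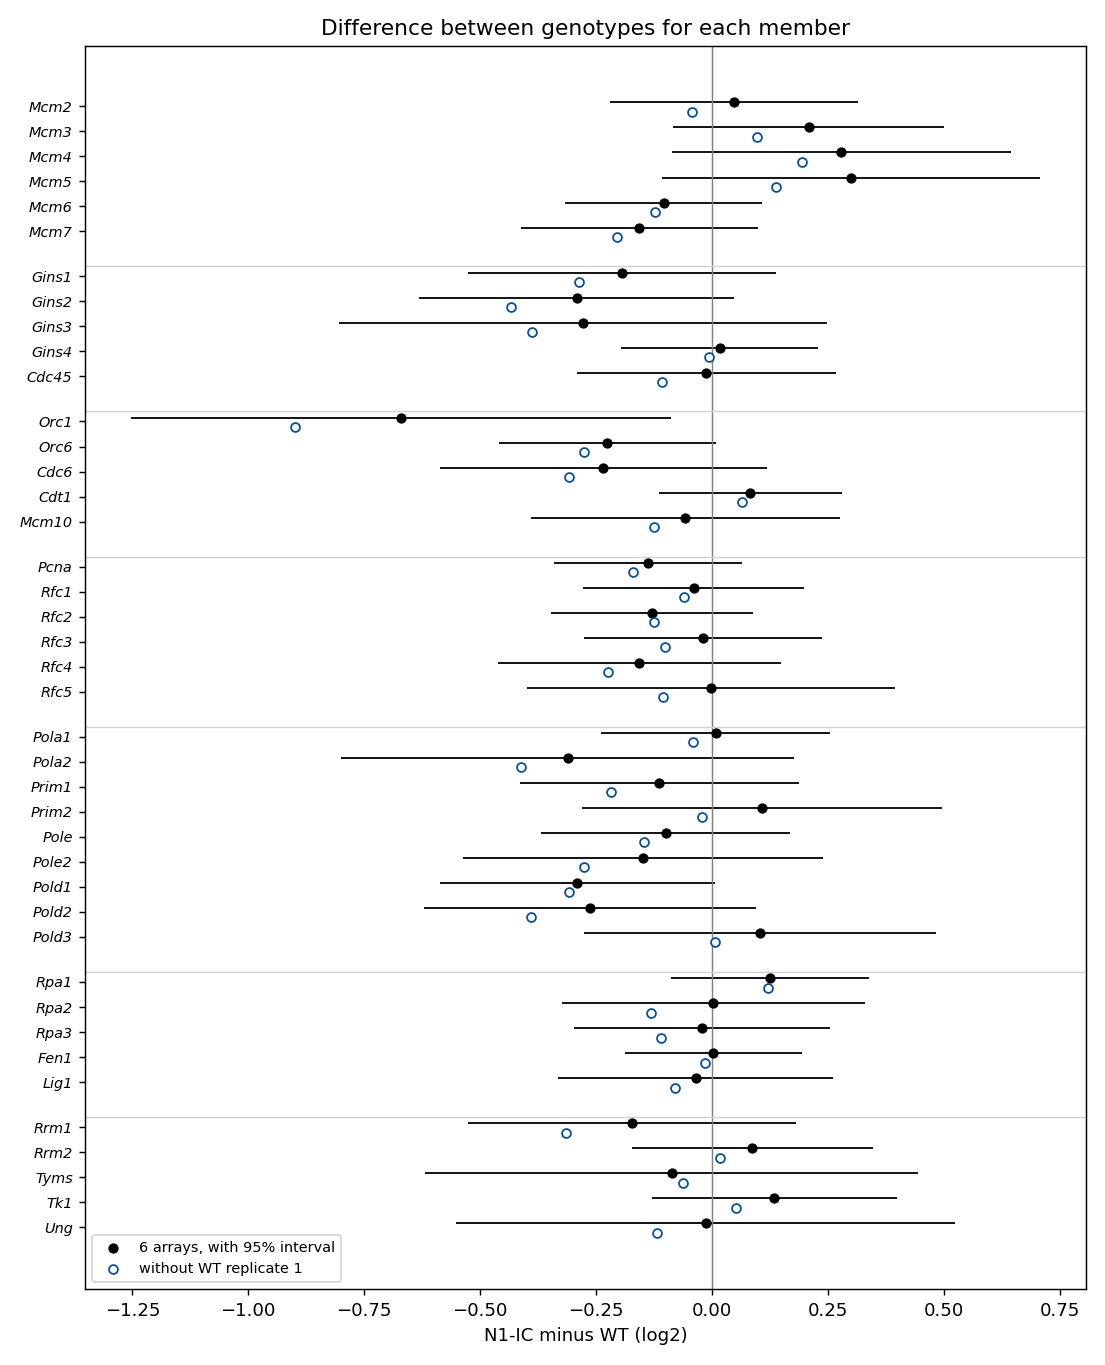
Difference in log2 level, N1-IC minus WT, for each of the 41 genes by role group, with the 95% interval from limma (black, 3 against 3 arrays) and the value without WT replicate 1 (open blue, 3 against 2). Only the interval of Orc1, from -1.25 to -0.089, leaves out 0, and most open points lie to the left of their black points.

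Groups that did not overlap were about as frequent as among all genes. For 6 of the 41 genes (14.6%, against 14.8% of all genes) every array of 1 genotype lay above every array of the other. Mcm3 was the single gene higher on all N1-IC arrays, where 8.32% of all genes were. Mcm6, Mcm7, Orc6, Pcna and Pold1 were lower on all N1-IC arrays, where 6.52% of all genes were. The genes are taken by role below.

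The helicase subunits split by sign. Mcm3, Mcm4 and Mcm5 had higher means in N1-IC and Mcm6 and Mcm7 lower ones, although MCM2-7 is a ring with 1 copy of each subunit. Log2 values of Mcm3 were 11.68, 11.96 and 12.08 on WT arrays 1, 2 and 3, and N1-IC arrays 1, 2 and 3 stood at 12.10, 12.13 and 12.11, a difference of 0.21 ± 0.12 (standard error; limma adjusted p = 0.645). The N1-IC arrays lay together just above WT 3, and WT 1 was lowest. Mcm4 read 11.95, 11.97 and 12.43 in WT and 12.47, 12.36 and 12.35 in N1-IC, a difference of 0.28 ± 0.15. Here WT 3 sat among the N1-IC arrays. Mcm5 gave 10.86, 11.26 and 11.43 against 11.64, 11.37 and 11.44, a difference of 0.30 ± 0.17, with N1-IC 2 below WT 3. For Mcm6 the values were 12.13, 12.23 and 12.14 in WT and 12.13, 11.98 and 12.09 in N1-IC, a difference of -0.10 ± 0.088. The closest arrays, WT 1 and N1-IC 1, were almost level. Mcm7 stood at 12.58, 12.84 and 12.60 in WT and at 12.48, 12.50 and 12.57 in N1-IC, a difference of -0.16 ± 0.11, with WT 2 apart above the rest. Mcm2 averaged 11.79 ± 0.16 (SD, n = 3) over the WT arrays and 11.84 ± 0.062 over the others.

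For every MCM gene but Mcm4, probe sets of the same gene differed in sign, for Mcm6 only through a dim one. Affymetrix marks a probe set _x_at when some probes also match unrelated transcripts and _s_at when probes are shared between related transcripts. The brightest probe sets of Mcm4 and Mcm5 are _x_at, and those of Mcm2, Mcm3 and Mcm7 are _s_at. The other probe set of Mcm4 gave a difference of 0.057, of the same sign. A second probe set of Mcm5, with the plain suffix, averaged 11.19 in WT and 11.12 in N1-IC, a difference of -0.076, and its remaining one gave 0.034. Mcm2 went from 0.048 by its _s_at probe set to -0.34 by its plain one. Of 5 probe sets for Mcm3, 3 gave differences of 0.10, 0.20 and 0.21, each with N1-IC above WT on every array, and the other two gave -0.19 and -0.12 with overlapping groups. Mcm7 had 3 probe sets with N1-IC below WT on every array (differences of -0.16, -0.18 and -0.26) and an _x_at probe set at 0.032. With the brightest probe set that is neither _x_at nor _s_at, a choice made after the data were seen, the median over the 6 helicase genes was -0.090, against 0.129 as first read.

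**Figure D2:**
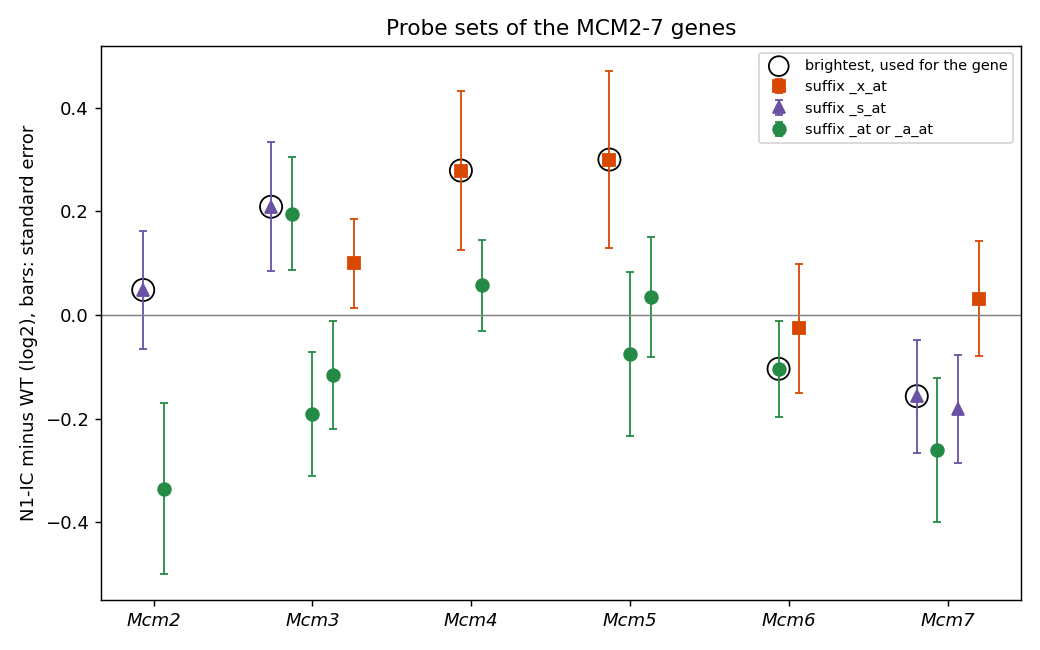
Difference in log2 level, N1-IC minus WT, for the probe sets of Mcm2 to Mcm7 with a mean of at least 7 log2 units, coloured by suffix, with standard errors from a fit of all 45101 probe sets. The circled probe sets represent the genes, and for Mcm4 and Mcm5 these _x_at probe sets lie highest, at 0.28 and 0.30.

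The differences varied with the suffix over the whole list. Among probe sets of the 41 genes with a mean of at least 9 log2 units, 9 of 11 marked _x_at had a higher mean in N1-IC (median difference 0.080), against 15 of 48 with a plain or _a_at suffix (median -0.055). Probe sets marked _s_at went the other way from _x_at, with 2 of 6 higher and a median of -0.16. Over all probe sets of that brightness the medians were 0.030 for 856 marked _x_at, -0.00028 for 942 marked _s_at and -0.012 for 8509 with a plain or _a_at suffix. The part of shared probes in the MCM differences was not tested. Of 30 genes with several probe sets of any level, dim ones included, 11 had the same sign in all and 19 had mixed signs. With a mean of at least 9 log2 units, 20 genes had several probe sets and 9 had the same sign in all. The same share over all genes was not counted.

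GINS and CDC45, which turn the loaded ring into an active helicase, had 4 of 5 genes lower in N1-IC by the mean (median difference -0.19). Gins2 read 10.37, 10.82 and 10.78 in WT and 10.36, 10.30 and 10.43 in N1-IC, a difference of -0.29 ± 0.14 (limma adjusted p = 0.624). WT 1 lay within the N1-IC range and the other WT arrays above it. The second probe set of Gins2, a _s_at one, gave the same difference of -0.29. Gins3 was at 9.63, 10.27 and 9.65 in WT and 9.29, 9.71 and 9.72 in N1-IC, so 1 high WT array and 1 low N1-IC array made most of its difference of -0.28 ± 0.22. Gins1 had a difference of -0.19, Gins4 of 0.017 and Cdc45 of -0.012.

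Among the origin licensing genes Orc1, the largest subunit of the origin recognition complex, had the widest range of all 41 genes. Its values were 6.95, 7.75 and 7.53 in WT and 7.05, 6.58 and 6.60 in N1-IC, a difference of -0.67 ± 0.24 (95% interval -1.25 to -0.089; limma unadjusted p = 0.0302, adjusted p = 0.618). WT 1 fell below N1-IC 1, so the groups overlapped. The dimmer probe set of Orc1 gave 0.25, with values between 5.59 and 6.71. Orc6, a smaller subunit of the same complex, read 11.46, 11.64 and 11.58 against 11.43, 11.32 and 11.26, a difference of -0.23 ± 0.096 (adjusted p = 0.618), with N1-IC below WT on every array by a narrow gap to WT 1. Cdc6, the ATPase that helps to load the ring, had a difference of -0.23, Mcm10, which acts when the helicase is switched on, of -0.057, and the loading factor Cdt1 of 0.083, all with overlapping groups.

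By their brightest probe sets all 6 genes of the clamp and its loader had lower means in N1-IC, by small amounts (median -0.084). Pcna, which encodes the sliding clamp, was at 12.99, 13.13 and 13.03 in WT and at 12.91, 12.92 and 12.91 in N1-IC, a difference of -0.14 ± 0.084 (limma adjusted p = 0.653). Its N1-IC arrays agree within an SD of 0.0074 and lie below WT 1. Rfc4, a small loader subunit, read 10.62, 10.99 and 10.66 against 10.66, 10.61 and 10.53, a difference of -0.16 ± 0.13 with WT 2 alone above the others. The other probe set of Rfc4 gave 0.058. Rfc1, the large subunit, had a difference of -0.039, and Rfc2, Rfc3 and Rfc5 had -0.13, -0.019 and -0.0018. The other probe sets of Rfc2, both _x_at, gave 0.099 and 0.080, those of Rfc1 -0.14 and -0.44, and that of Rfc3 -0.18.

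Polymerase and primase genes had 6 of 9 members lower by the mean (median -0.11). Pold1, the catalytic subunit of polymerase delta, which copies the lagging strand, read 11.03, 11.25 and 10.92 in WT and 10.87, 10.81 and 10.65 in N1-IC, a difference of -0.29 ± 0.12 (limma adjusted p = 0.618). Its other probe set agreed in sign and in the separation of the groups, with 8.73, 9.02 and 8.82 against 8.65, 8.60 and 8.62. Pola2, the accessory subunit of polymerase alpha, was at 8.83, 9.46 and 8.80 in WT and 8.61, 8.66 and 8.88 in N1-IC, a difference of -0.31 ± 0.20 with WT 2 alone above the others. The polymerase delta subunits Pold2 and Pold3 had -0.26 and 0.10. Pole, the catalytic subunit of the leading-strand polymerase epsilon, had -0.10, and its partner Pole2 had -0.15. The primase genes Prim1 and Prim2 had -0.11 and 0.11. Pola1, the catalytic subunit of polymerase alpha and the only X-linked gene of the list, had 0.0081.

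Genes of RPA, which coats single-stranded DNA, and of Okazaki fragment processing lay closest to no difference (median 0.0032). Rpa1 read 12.40, 12.34 and 12.49 in WT and 12.47, 12.58 and 12.56 in N1-IC, a difference of 0.13 ± 0.088 (limma adjusted p = 0.672). In its other probe set N1-IC was above WT on every array, at 10.36, 10.44 and 10.44 against 10.64, 10.88 and 10.59. That difference was 0.29 ± 0.11 (limma over all probe sets, unadjusted p = 0.039, adjusted p = 0.640). Of 89 probe sets of the listed genes, 2 had an unadjusted p under 0.05, this one and the brightest one of Orc1, which was lower in N1-IC. Fen1, the flap endonuclease, had values of 13.43, 13.52 and 13.46 in WT and 13.48, 13.46 and 13.47 in N1-IC, a difference of 0.0032 ± 0.079 with a 95% interval from -0.19 to 0.19. Rpa2, Rpa3 and the DNA ligase gene Lig1 had differences of 0.0036, -0.021 and -0.034.

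In nucleotide synthesis, the subunits of ribonucleotide reductase, which makes deoxyribonucleotides, had opposite signs. Rrm1, the large subunit, read 11.17, 11.69 and 11.51 in WT and 11.35, 11.26 and 11.24 in N1-IC, a difference of -0.17 ± 0.15 (limma adjusted p = 0.706), with WT 1 below every N1-IC array. Rrm2, the small subunit, whose amount limits the enzyme in S phase, was at 12.89, 13.01 and 13.20 against 13.13, 13.17 and 13.08, a difference of 0.088 ± 0.11 by an _x_at probe set. The other probe sets of Rrm2 gave -0.18 and 0.15. Tk1, thymidine kinase, read 12.12, 12.36 and 12.38 against 12.37, 12.52 and 12.38, a difference of 0.13 ± 0.11. Tyms, thymidylate synthase, spread most within N1-IC, at 7.29, 7.37 and 7.07 in WT and 7.04, 7.62 and 6.81 in N1-IC. The difference was -0.086 ± 0.22, and both groups overlapped. Ung, which removes uracil from DNA, had a difference of -0.013 ± 0.22, with N1-IC arrays spread from 10.73 to 11.51.

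**Figure D3:**
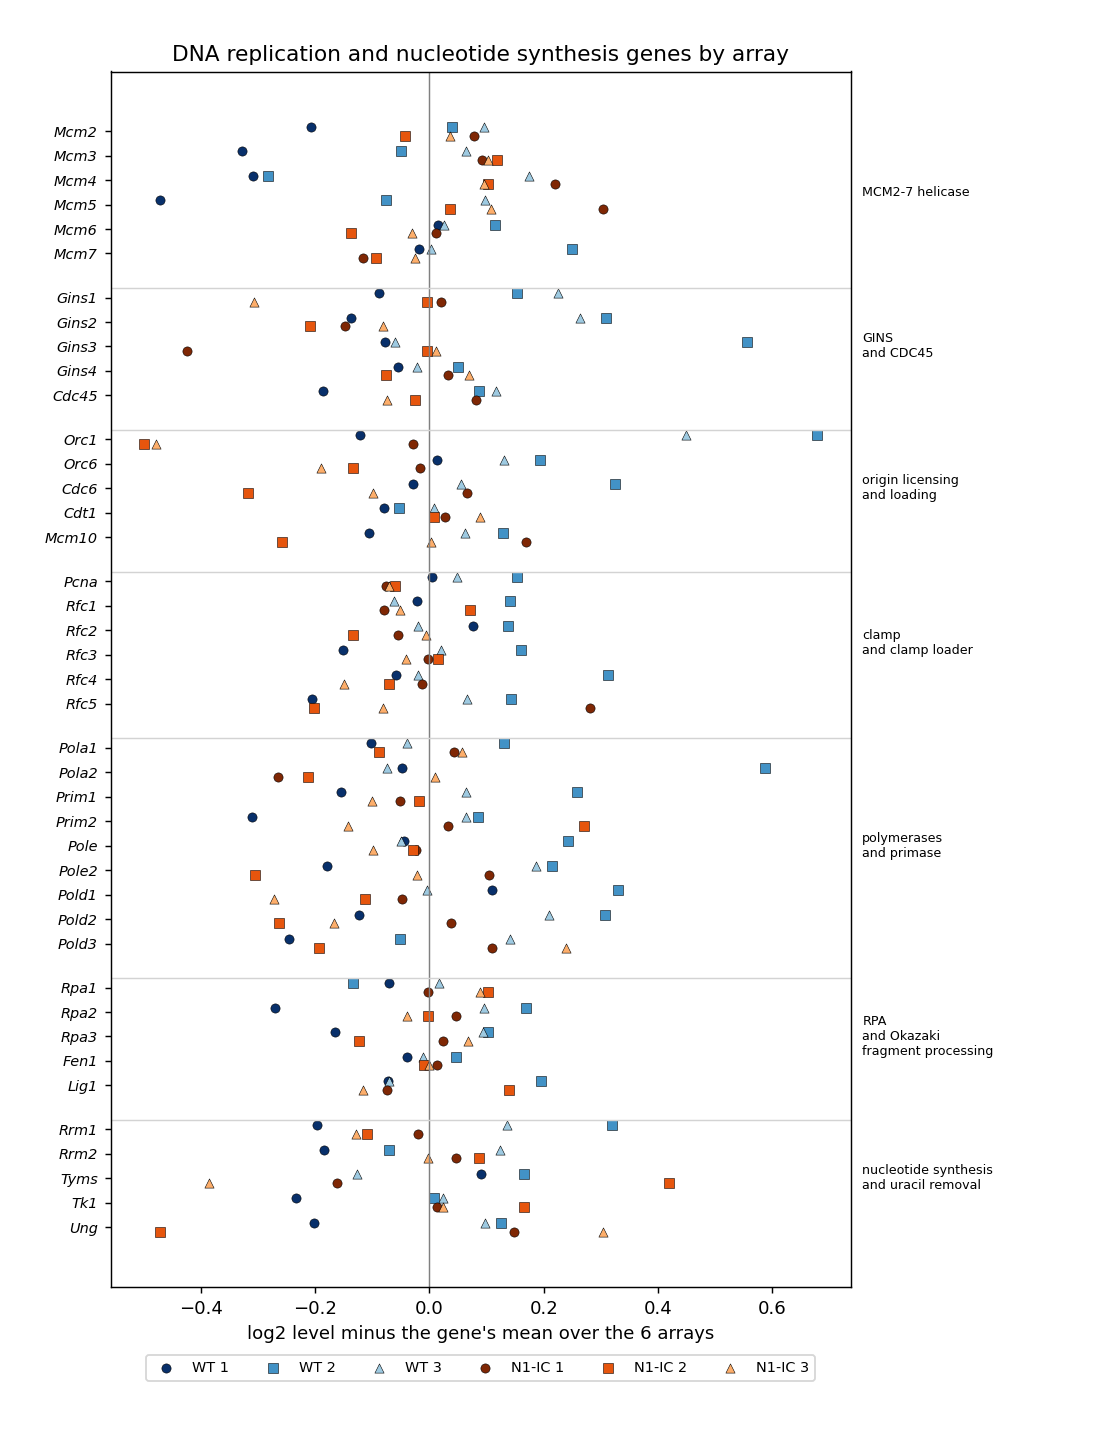
Log2 level of each of the 41 genes on each array, as the deviation from that gene's mean over the 6 arrays, in role groups (blue, WT; orange and brown, N1-IC). WT 1 lies left of the other WT arrays for 34 of the 41 genes and WT 2 lies right of them for 30.

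The WT arrays differed among themselves. For 39 of the 41 genes the span of the WT arrays exceeded the size of the difference between group means, as it did for 83.8% of all genes. A span of single arrays is commonly wider than a difference of means, so nothing is concluded from this count. The median span was 0.31 log2 units in WT and 0.15 in N1-IC, against 0.32 and 0.26 over all genes. The spread had an order shared by most of the list. WT 1 was the lowest WT array for 34 of the 41 genes (82.9%, against 30.7% of all genes), and WT 2 was the highest for 30 (73.2%, against 31.0%). Over the list the median deviation from a gene's mean was -0.11 on WT 1, 0.14 on WT 2 and 0.062 on WT 3, and 0.014, -0.061 and -0.031 on N1-IC 1, 2 and 3. Over all genes these medians lay between -0.019 and 0.011. The genes of a list share each array, so these counts describe 6 arrays and not 41 separate observations.

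**Figure D4:**
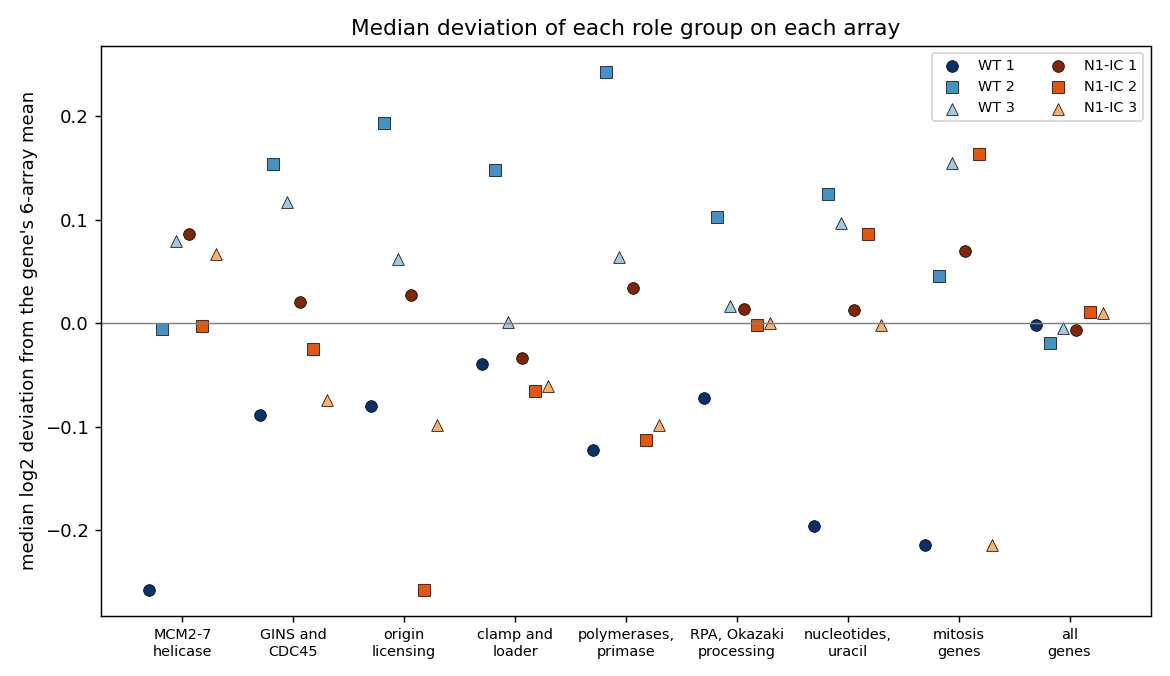
Median deviation in log2 level from the gene's 6-array mean for each role group, for 27 mitosis genes and for all 18194 genes, by array. WT 1 is lowest of the WT arrays in every replication role group, from -0.26 for the helicase genes to -0.040 for the clamp and its loader, and WT 2 is highest of them in every group but the helicase, where it is at -0.0055.

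Among the cell type markers, erythroid ones stood apart on WT 2 and late granulocyte ones on WT 1. Erythroid markers (12 of 16 measured) had a mean of 9.74 log2 units on WT 2 and of 5.86 to 6.86 on the other arrays. Among them the erythroid regulator Klf1 was at 10.04 on WT 2 and at 5.46 to 6.25 elsewhere, while the globin gene Hba-a1 stayed at 3.50 to 4.45, near the lower quartile of the arrays. Late granulocyte markers (13 of 15 measured) had a mean of 7.85 on WT 1 and of 10.02 to 10.59 elsewhere. Mast cell, basophil and eosinophil markers were at 8.30 on WT 2, 7.97 on N1-IC 2 and 7.93 on N1-IC 3, against 6.72 to 7.09. Monocyte, T cell and B cell markers had means within 9.27 to 9.52, 4.80 to 5.48 and 5.54 to 5.84. The part of other cells in the replication values was not tested, and in sorted bulk samples fewer cells in cycle and less RNA per cell cannot be told apart. The sort markers were present on all arrays, with Kit at 10.23 to 10.76, Cd34 at 10.05 to 11.69 (lower on every N1-IC array) and Fcgr3 at 12.60 to 13.12, and the progenitor granule gene Mpo was at 13.80 to 14.11. The 8 progenitor and primary granule genes, Mpo among them, had a mean of 12.46 on WT 1 and of 12.71 to 12.84 elsewhere. WT 1 was the lowest WT array for 7 of these 8. Ly6a, which encodes Sca1, was not measured here.

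Leaving out a single WT array moved the list in opposite directions. WT 1 was the lowest WT array for 34 of the 41 genes and WT 2 the highest for 30. Leaving out WT 1 raises the WT means of those 34, and leaving out WT 2 lowers those of the 30. The counts and medians below follow in part from that choice of array, so nothing is concluded from their direction. Without WT 1, 33 of the 41 genes were lower in N1-IC and the median difference was -0.12, where 46.0% of all genes were lower. Without WT 2, 20 were lower (48.8%, against 48.3% of all genes) and the median was 0.022, against 0.0080 over all genes, so the list then lay near the background. Without WT 1, 0 of the 41 genes passed in limma, beside 1 of all genes (0.0055%, again Eif2s3y), with a smallest adjusted p of 0.773. By unadjusted p under 0.05 there were then 5 of 41, all lower, where 2.75% of all genes were. They were Orc1 (-0.90), Gins2 (-0.43), Pold2 (-0.39), Rrm1 (-0.31) and Orc6 (-0.27). N1-IC lay below both remaining WT arrays for 16 of the 41 genes, where 10.2% of all genes did. WT 2, the array with the erythroid markers, is 1 of the pair that this comparison rests on.

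By role the change of WT arrays was uneven. Without WT 1 the medians were -0.29 for GINS and CDC45 with 5 of 5 lower, -0.27 for origin licensing with 4 of 5, -0.22 for polymerases and primase with 8 of 9, -0.11 for the clamp and loader with 6 of 6, -0.079 for RPA and Okazaki processing with 4 of 5, -0.063 for nucleotide synthesis with 3 of 5, and 0.027 for the helicase with 3 of 6. Without WT 2 they were -0.070, -0.13, -0.012, -0.0083, 0.055, 0.046 and 0.14 in the same order, with 3 of 5, 4 of 5, 6 of 9, 3 of 6, 0 of 5, 2 of 5 and 2 of 6 genes lower.

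Other genes of the same processes were also mostly lower by the mean. Of 35 further fork and licensing genes 23 were lower and 0 passed (median -0.065), and without WT 2 17 were lower (median 0.0033). At an unadjusted p under 0.05, 1 of the 35 was higher, where 4.14% of all genes were. That gene was Mcm9, a helicase of DNA repair, at 10.45, 10.14 and 10.31 in WT and 10.65, 10.54 and 10.80 in N1-IC. Of 30 further nucleotide supply genes 21 were lower and 0 passed (median -0.091). Without WT 2, 20 of these 30 were lower (median -0.051), and WT 1 was their lowest WT array in 50.0%, against 82.9% of the 41 replication genes, a difference that was not tested. The purine synthesis gene Gart (-0.37), the pyrimidine synthesis gene Dhodh (-0.44) and Dctpp1 (-0.40), which breaks down surplus dCTP, were lower at unadjusted p of 0.0260, 0.0284 and 0.0377 in limma, each with an adjusted p of 0.618. They were 3 of the 30, where 3.84% of all genes were lower by an unadjusted p under 0.05. Gart has 4 probe sets and Dhodh 2, of which only the brightest was read. Of 13 E2F and pocket protein genes 7 were lower and 0 passed (median -0.018), with the repressor gene E2f5 at -0.95 ± 0.21 and Rb1 at 0.28 ± 0.10 (adjusted p of 0.618 each). At an unadjusted p under 0.05, 1 of the 13 was lower (E2f5) and 1 higher (Rb1), where 3.84% and 4.14% of all genes were. E2f5 was dim, with N1-IC arrays of 5.05, 4.83 and 5.48 below the median of all probe sets (5.63 to 5.67). Its WT arrays gave 6.01, 6.35 and 5.85. This probe set of E2f5 is a _s_at one, the brightest of 3. Rb1 has 2, and the dimmer probe sets of both genes were not read. Mitosis genes had 12 of 27 lower, 0 passed and none reached an unadjusted p under 0.05, with a median of 0.011, and for 25 of 27 WT 1 was the lowest WT array. WT 2 was the highest WT array for 7 of 27 mitosis genes, against 30 of 41 replication genes, a difference that was not tested.

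Position was the last feature examined. The RefSeq table (GRCm38.p6) places 8 of the 41 genes on chromosome 5 (Mcm7, Pole, Rfc1, Rfc2, Rfc3, Rfc5, Tyms and Ung), which holds 6.22% of all genes measured. Another 6 lie on chromosome 8 (Mcm5, Gins2, Gins3, Gins4, Cdt1 and Orc6), which holds 5.17%. On chromosome 5 all 8 genes had lower means in N1-IC by their brightest probe sets, with differences from -0.16 (Mcm7) to -0.0018 (Rfc5). Of all genes of that chromosome 49.0% were lower, and of the 41 replication genes 65.9%. Rfc1, Rfc2, Rfc3 and Rfc5 are loader genes already counted by role, and without WT 2 only 3 of the 6 clamp and loader genes were lower. An effect of position was not tested. Some other probe sets of Mcm7, Rfc2 and Tyms had higher means in N1-IC. On chromosome 8 Mcm5, Gins4 and Cdt1 had higher means and Gins2, Gins3 and Orc6 lower ones. The 3 genes on chromosome 2 (Gins1, Mcm10 and Pcna) were all lower by the mean.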

How the data were processed

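Values were deposited by the authors as linear intensities for every probe set. Per the submitters' processing notes they were made with RMA, which corrects background, normalizes by quantiles and summarises probes (version not given in the sources used here). That step removes differences in total signal, so a difference is relative to the rest of the array. The number of arrays limits the precision. Here log2 was taken with no offset. Of 45101 probe sets, 34958 had 1 gene symbol, 932 several and 9211 none. Symbols were updated through Entrez identifiers to RefSeq (34754 matched), and the brightest probe set stood for each of 18194 genes. N1-IC (n = 3) was compared with WT (n = 3) in R 4.3.3 with limma 3.58.1 (lmFit, eBayes), adjusted over all genes by Benjamini-Hochberg. The fit was tested on simulated data. The 41 members, role groups and lists were chosen with earlier results of these data known, so lists are described by counts and medians, with no test. Genes named with every array value were, in each role group, those whose groups do not overlap, the one with the smallest p and the one with the largest difference, plus the 5 with the highest means and the 5 with the widest ranges; of other lists, up to 3 with the smallest p, and a few others. Alternatives were further quantile normalization, median centring, 16 units added before log2, a filter at the median level, the mean of probe sets, array weights, a robust prior, a mean-variance trend, a replicate block and each array left out.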

Additional observations from a re-analysis of the deposited data

How the results depend on the processing

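No replication gene passed under any alternative tried, where the smallest adjusted p in limma ran from 0.305 (Mcm4 without WT replicate 3) to 0.837. The count of genes past the threshold over the whole table, 1 as reported, was 2 with dim genes filtered out, 5 with the mean of probe sets, 3 with a mean-variance trend, 2 with array weights and 0 to 5 with single arrays left out (5 without WT replicate 2, 3 without N1-IC replicate 2, 2 without N1-IC replicate 1, 0 without WT replicate 3). Replicate numbers did not pair the arrays (correlations of deviations 0.0093, 0.061 and -0.11), and the replicate block left 0 genes. The number of replication genes lower in N1-IC stayed within 20 to 33. Group medians that moved by more than the replicate spread were GINS and CDC45 (-0.081 with the mean of probe sets; -0.29 to -0.070 with single arrays left out), the helicase (-0.090 without _x_at and _s_at probe sets), the clamp and loader (-0.13 to -0.0083 with single arrays left out) and RPA with Okazaki processing (-0.079 to 0.055). Signs turned for Fen1 (-0.015 with quantile normalization, -0.025 with the mean of probe sets, -0.053 in its other probe set, -0.015 to 0.027 with arrays left out) and Tyms (0.077 with the mean of probe sets, 0.0073, 0.17 and 0.22 in other probe sets, -0.32 to 0.085 with arrays left out). Among the replication genes named with every array value, signs also turned in other probe sets of Mcm3 (-0.19 and -0.12), Mcm5 (-0.076), Mcm6 (0.11), Mcm7 (0.032), Orc1 (0.25), Pola2 (0.20), Rfc4 (0.058) and Rrm2 (-0.18). Those of Mcm6 (4.57 to 4.93 log2 units) and Pola2 (3.62 to 4.28) were dim. Further genes of the list had such probe sets, among them Mcm2 (-0.34), Pold3 (-0.26) and Rfc2 (0.099 and 0.080). The cause was not tested. The choice without _x_at and _s_at probe sets was added after the data were seen.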
